A study of Sus scrofa with 12 samples.

Results

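The genes of the insulin-like growth factor (IGF) axis were followed in RNA sequencing of porcine induced pluripotent stem cells under endothelial induction and of the porcine endothelial cell line AOC. The set comprised 10 genes chosen by name, the ligands IGF1 and IGF2, the receptors IGF1R and IGF2R, and the binding proteins IGFBP2, IGFBP3, IGFBP4, IGFBP5, IGFBP6 and IGFBP7. Of these, 8 were found by symbol among the 19681 genes of the files, and IGF2 and IGFBP3 were not matched. The set was proposed because IGFBP2 had been seen to be low by day 12 in these same libraries, so IGFBP2 is given as a description without a test in every comparison other than IEC4 against IEC2.

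Each of the 4 groups had 3 libraries, replicates A, B and C, which the study describes as biological replicates. IEC2 cells had received 2 days of CHIR99021, an inhibitor of the kinase GSK3, on Matrigel. IEC4 cells had then received BMP4, FGF2 and VEGF up to day 4, and IEC12 cells had gone on in the endothelial growth medium EGM-2 with VEGF up to day 12. EGM-2 is sold with an IGF1 analogue among its supplements, so stage, day and growth factors cannot be told apart in any comparison of stages. The labels speak of separated cells without naming a marker or a sort. The paper lists IEC12 as cells after 12 days of induction, and the cells then sorted for CD31 as a separate group, which is absent here. AOC was 1 cell line grown outside the induction protocol.

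IGF1 and IGF2 are secreted growth factors that signal through the receptor tyrosine kinase IGF1R, whereas IGF2R, the cation-independent mannose 6-phosphate receptor, removes IGF2 and carries lysosomal enzymes. The binding proteins hold IGFs outside the cell, where they limit access to the receptor and lengthen the life of the ligand, and proteases release the ligand by cutting them. IGFBP7, also known as angiomodulin, binds IGFs weakly and is a secreted protein of vascular matrix. In pluripotent and embryonic cells IGF signalling acts through insulin receptor substrates on the PI3K, mTOR and MAPK pathways in growth and survival.

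Levels are given in FPKM, which divides the fragments of a gene by its transcript length and by the size of the library, and how many reads lie behind a value is not known. FPKM sums per library ranged from 335976 to 457194, and 8357 to 10467 genes reached an FPKM of 1. The depth relative to the other libraries, estimated from the steps of low values, ranged from 0.845 to 1.26. The 12 mitochondrial genes took 1.95% to 15.0% of the sum, with the highest share in IEC12 replicate A. Replicates of a group correlated with Pearson's r between 0.967 and 0.992 over all genes on the log2(FPKM + 1) scale.

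The labels were compared with cell type markers before the IGF genes were read. The endothelial list, of which 10 of 13 genes were found, summed to an FPKM of 296 to 421 in AOC and of 0.415 to 0.590 in IEC12, with 3.44 to 5.97 for IEC2 and 2.04 to 3.39 for IEC4. CDH5, the endothelial cadherin, was listed at 0 in 9 of 9 IEC libraries and lay between 103 and 137 in AOC. The AOC label thus had its defining markers, whereas the IEC12 libraries held no endothelial marker profile and are called here by their day. The epithelial list, with 4 of 5 genes found, summed to 316 to 822 in IEC4, to 13.3 to 21.2 in IEC2, to 4.68 to 16.0 in IEC12 and to at most 0.0509 in AOC, where CDH1 and KRT18 were listed at 0. The pluripotent list, with only 2 of 7 genes found, summed to at most 0.155 in IEC2, 3.30 to 6.39 in IEC4, 0.248 to 1.52 in IEC12 and at most 0.0462 in AOC. The fibroblast and mural list, with 9 of 10 found, summed to 80.5 to 112 in IEC2, 51.3 to 64.2 in IEC4, 61.6 to 80.2 in IEC12 and 23.2 to 36.7 in AOC. Most of it was COL3A1 in IEC2 (66.0 to 108), IEC4 (40.6 to 52.9) and IEC12 (58.9 to 77.5). In such bulk libraries, fewer cells of a type and less RNA per cell cannot be told apart.

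IGFBP2, on chromosome 15 (118822092 to 118850985 in RefSeq's Sscrofa11.1, the build that the processing notes name as susScr11), was the most abundant binding protein in IEC2 and IEC4. Its FPKM was 36.0, 44.3 and 43.2 in IEC2 replicates A, B and C, 24.9, 29.1 and 29.8 in IEC4, and 0.698, 2.02 and 3.59 in IEC12. It was listed at 0 in 3 of 3 AOC libraries, where a value of 0 can also be a failed estimate. The libraries of the IEC stages did not overlap, and the IEC12 libraries lay closer to AOC than to any IEC4 library.

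The mean IGFBP2 level was 41.2 ± 4.51 (SD, n = 3) in IEC2, 27.9 ± 2.61 by IEC4 and 2.10 ± 1.45 by IEC12. The IEC12 mean was 13.3-fold lower than that of IEC4 and 19.6-fold lower than that of IEC2, as a description of the values behind the choice of the set. Between IEC4 and IEC2, a contrast other than the one behind that choice, the difference of -0.54 on the log2(FPKM + 1) scale (SE 0.303) did not pass the test (limma adjusted p = 0.187, 0.014 to 0.36 over the alternative settings). No fold is given against AOC, which was listed at 0. Within IEC12, replicate A had the lowest IGFBP2 level and the highest mitochondrial share (15.0%), and replicate C the highest IGFBP2 level and the lowest share (7.77%). The part of the mitochondrial share in these levels was not tested.

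**Figure D1:**
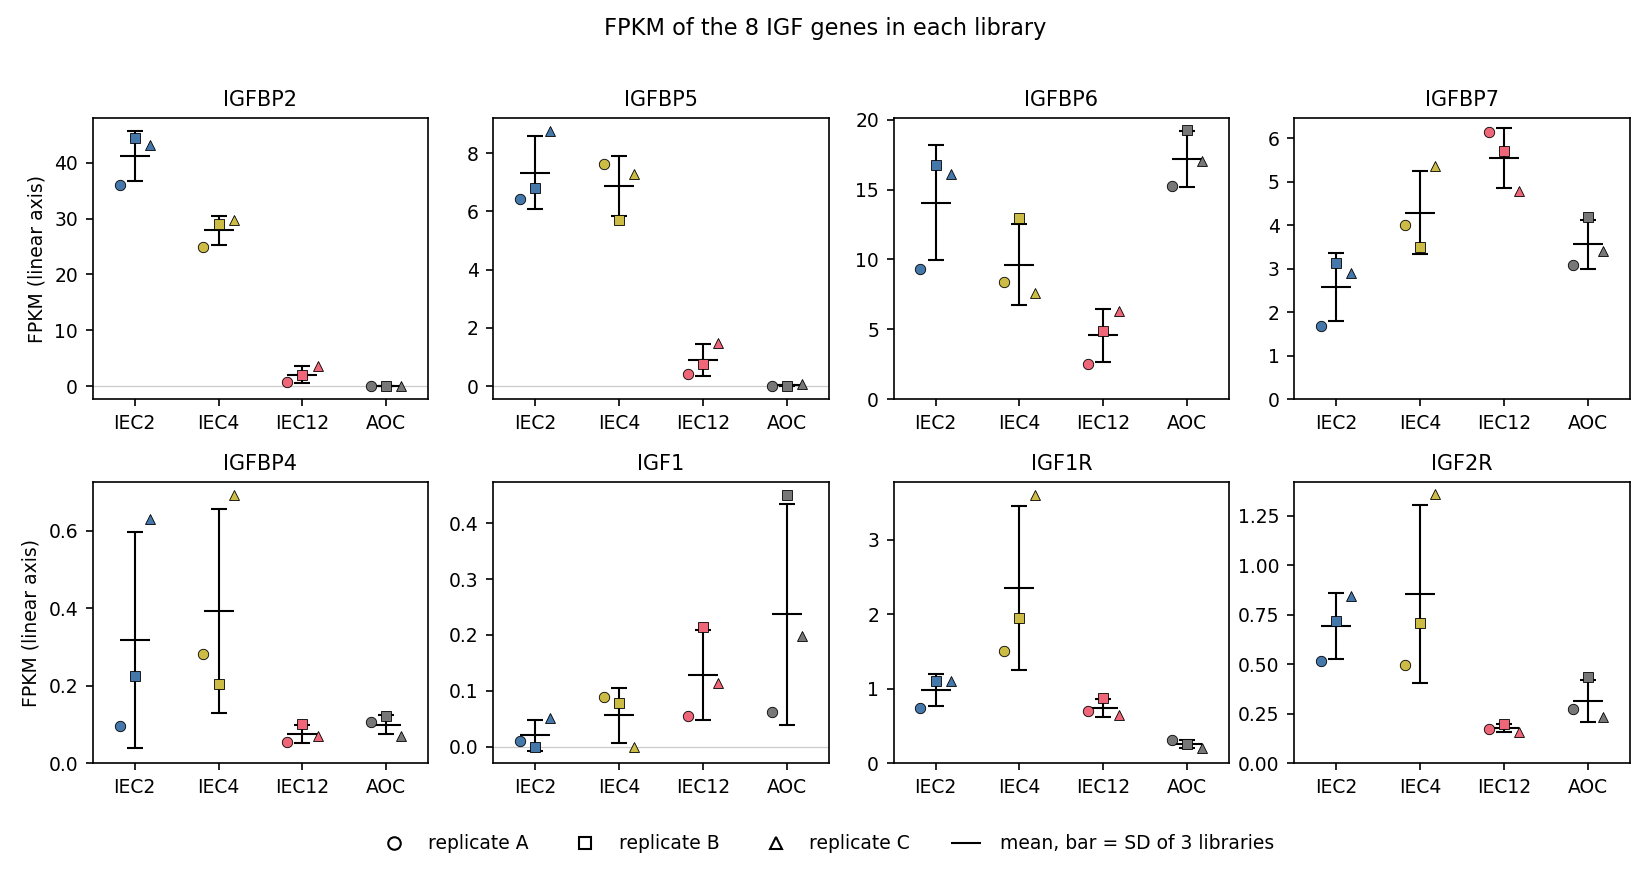
FPKM of the 8 genes found (vertical axes) in each library of IEC2, IEC4, IEC12 and AOC, with points for libraries and bars for the mean and SD of 3. IGFBP2 lay at 36.0 to 44.3 in IEC2 and at 0.698 to 3.59 in IEC12, whereas IGFBP7 lay at 1.69 to 3.13 and 4.78 to 6.13 in these groups.

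IGFBP5, a binding protein with a strong affinity for extracellular matrix, had a profile close to that of IGFBP2 at a lower level. The gene lies next to IGFBP2 on chromosome 15 (118861816 to 118877787), 10830 bases away with 0 RefSeq genes between them. IGFBP5 FPKM was 6.43, 6.79 and 8.77 in IEC2, 7.63, 5.70 and 7.27 in IEC4, 0.417, 0.777 and 1.49 in IEC12, and 0.0207, 0 and 0.0603 in AOC. The IEC2 and IEC4 libraries overlapped, whereas every IEC12 library lay below all of them and above all AOC libraries.

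A gene was called when its limma adjusted p was under 0.05 and its absolute log2 fold change exceeded 1. On the log2(FPKM + 1) scale, IGFBP5 fell by 2.08 from IEC4 to IEC12 (SE 0.235, limma adjusted p = 0.000179) and fell by 2.16 from IEC2 to IEC12 (limma adjusted p = 9.7e-05). These calls held in 16 of 16 other fits in each comparison, at the same limits. IGFBP5 passed the filter on low values through IEC2 and IEC4, and in a fit of all genes without the filter the adjusted p values were 0.000941 and 0.000527 (limma). Of the IEC12 libraries, replicate A, with the highest mitochondrial share, had the lowest IGFBP5 level. Without it the differences were -1.89 from IEC4 (limma adjusted p = 0.000353) and -1.97 from IEC2 (limma adjusted p = 0.000174). Between IEC4 and IEC2 the difference was -0.08 (limma adjusted p = 0.813). The mean FPKM of IGFBP5 in IEC12 was 7.67-fold below that of IEC4. The ratio of IGFBP5 to IGFBP2 FPKM was 0.466 ± 0.115 in IEC12, 0.249 ± 0.0551 in IEC4 and 0.178 ± 0.0249 in IEC2 (SD, n = 3).

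Over the 12 libraries, IGFBP5 had the highest correlation with IGFBP2 of the other 11052 genes tested, with Pearson's r = 0.993, and IGFBP2 in turn ranked first for IGFBP5. The points share 4 group means, so that any gene high on days 2 and 4, low on day 12 and near 0 in AOC scores highly. The other 4 genes closest to IGFBP2 were 2 identifiers without a symbol, the translation elongation factor EEF2 (r = 0.991) and the cytokine gene IL16 (r = 0.990). EEF2 had a mean FPKM of 705 in IEC2, 569 in IEC4, 192 in IEC12 and 89.3 in AOC. IL16 had a mean of 10.2, 8.03, 0.798 and 0.0127 in the same order.

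**Figure D2:**
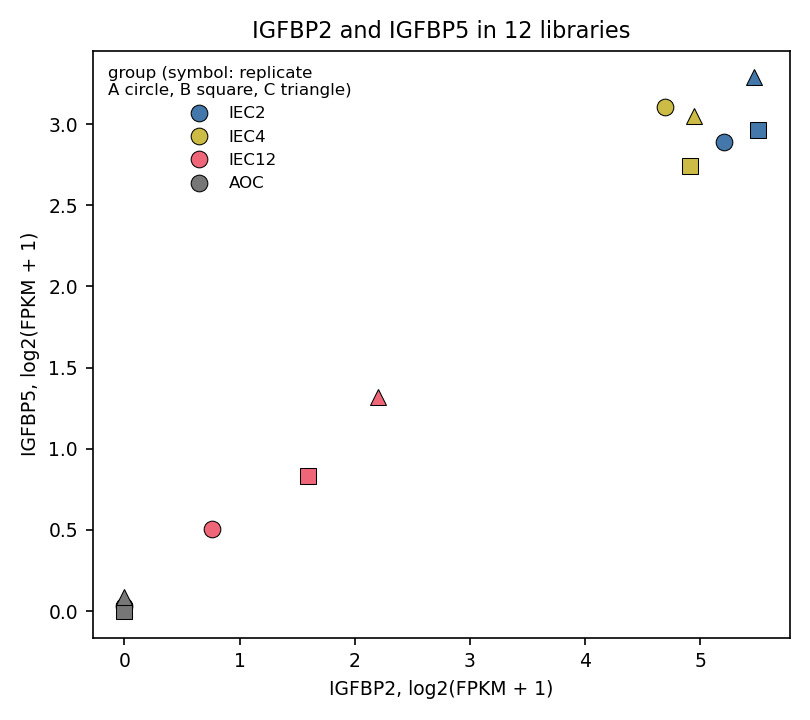
IGFBP5 (vertical axis) against IGFBP2 (horizontal axis) in the 12 libraries, both as log2(FPKM + 1), with colours for groups and symbols for replicates. The 3 IEC12 libraries lie between the overlapping AOC points near 0 and the 6 libraries of IEC2 and IEC4.

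IGFBP6, which prefers IGF2 as a ligand, lies on chromosome 5 (18352884 to 18357225) and reached an FPKM of 1 in 12 of 12 libraries. Its FPKM was 9.31, 16.8 and 16.1 in IEC2, 8.36, 12.9 and 7.57 in IEC4, 2.52, 4.89 and 6.31 in IEC12, and 15.3, 19.3 and 17.0 in AOC. The IEC12 libraries were the lowest, without overlap with any other group, and AOC overlapped with IEC2. IGFBP6 fell by 1.46 from IEC2 to IEC12 on the log2(FPKM + 1) scale (SE 0.321, limma adjusted p = 0.0053). The difference of -0.96 between IEC12 and IEC4 had a limma adjusted p of 0.0352 and did not reach the fold limit. It passed both limits without IEC4 replicate C (-1.10) or without IEC12 replicate C (-1.19), and its adjusted p was at least 0.05 in 5 of 16 alternative settings. IEC4 and IEC2 differed by -0.50 (limma adjusted p = 0.252). IGFBP6 was also lowest in IEC12 replicate A, where the mitochondrial share was 15.0%, and highest in replicate C, where it was 7.77%. Without IEC12 replicate A, IEC12 and IEC2 differed by -1.16 (limma adjusted p = 0.0108).

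IGFBP7 had higher values on day 12 than on day 2. On chromosome 8 (56283089 to 56357822), its FPKM was 1.69, 3.13 and 2.91 in IEC2, 4.00, 3.5 and 5.36 in IEC4, 6.13, 5.71 and 4.78 in IEC12, and 3.09, 4.18 and 3.40 in AOC. The libraries of IEC12 and IEC4 overlapped, and those of both lay above IEC2. The difference between IEC12 and IEC2 was 0.89 on the log2(FPKM + 1) scale (SE 0.221, limma adjusted p = 0.0096), under the fold limit. Without IEC2 replicate B it was 1.01 and passed. IEC4 and IEC2 differed by 0.57 (limma adjusted p = 0.0674), and IEC12 and IEC4 by 0.32 (limma adjusted p = 0.268).

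IGFBP4, on chromosome 12 (21966524 to 21980043), did not reach an FPKM of 1 in any library. Its highest value was 0.691, in IEC4 replicate C, and its lowest 0.0553, in IEC12 replicate A. It was not tested because of these low levels.

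The makeup of the measured binding proteins is given as a description, because it includes IGFBP2, the gene behind the choice of the set. The lower sum and the smaller IGFBP2 share in IEC12 largely restate that choice. The shares of the other genes depend on that of IGFBP2. Since FPKM is scaled to transcript length, the values of IGFBP2, IGFBP4, IGFBP5, IGFBP6 and IGFBP7 were summed in each library, without IGFBP3. The sum was 65.5 ± 10.3 in IEC2, 49.1 ± 3.39 in IEC4, 13.2 ± 3.22 in IEC12 and 20.9 ± 2.56 in AOC (SD, n = 3). IGFBP2 made up 63.3% ± 3.59 of it in IEC2 and 56.8% ± 1.82 in IEC4, but 14.7% ± 7.51 in IEC12. IGFBP6 held the largest share in AOC with 82.4% ± 0.556, against 33.6% ± 6.98 in IEC12. In IEC12 the mean share of IGFBP7 was 44.7% ± 16.6, but only replicates A and B had IGFBP7 as the leading binding protein, with 62.4% and 42.3%. In replicate C, IGFBP6 led with 38.8% against 29.4% for IGFBP7.

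**Figure D3:**
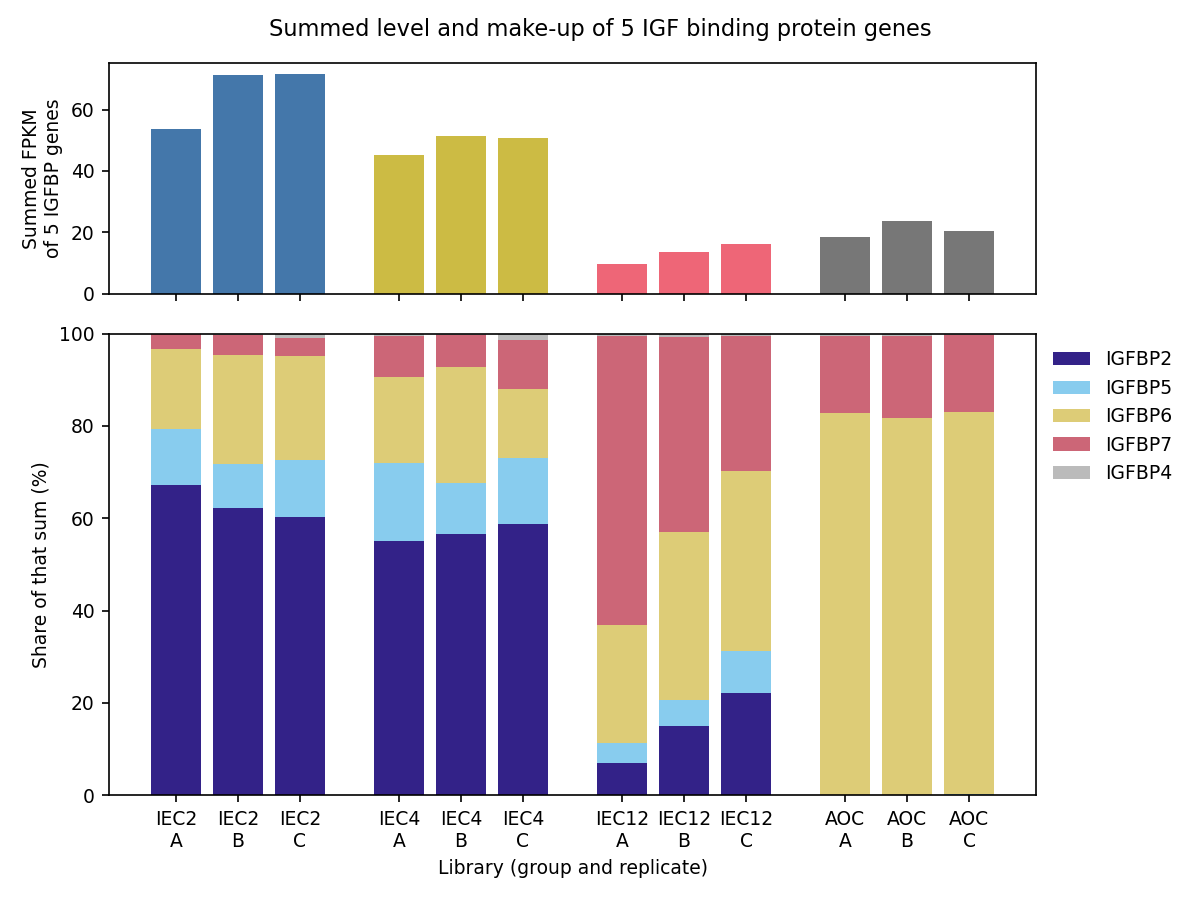
Share of IGFBP2, IGFBP4, IGFBP5, IGFBP6 and IGFBP7 in their summed FPKM (percent, vertical axis) for each library. IGFBP2 took 55.2% to 67.3% in the IEC2 and IEC4 libraries and 7.10% to 22.1% in IEC12, and IGFBP6 took 81.8% to 82.8% in AOC.

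The ratio of IGFBP7 to IGFBP6 FPKM does not depend on the scaling of a library. It was 0.181, 0.187 and 0.181 in IEC2, 0.478, 0.271 and 0.708 in IEC4, 2.43, 1.17 and 0.758 in IEC12, and 0.202, 0.217 and 0.2 in AOC. The groups did not overlap in any of the 6 comparisons. The ratio was not among the planned comparisons. It sets a gene higher in IEC12 than in IEC2 against a gene that was lower, so its separation partly restates their values. Whether other pairs of genes separate as fully was not tested. In log2 units the mean ratio was 2.82 higher in IEC12 than in IEC2, 1.52 higher in IEC12 than in IEC4 and 1.30 higher in IEC4 than in IEC2. The two-sided exact permutation test gave p = 0.1 in each comparison, also after Benjamini-Hochberg adjustment over 6, and this is the smallest p that 3 libraries against 3 allow. Of the 3 IEC12 libraries, replicate A had both the highest ratio and the highest mitochondrial share, and the part of the latter was not tested.

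Of the ligands, only IGF1 could be read. IGF1, on chromosome 5 (81762027 to 81909253), did not reach an FPKM of 1 in any library and was not tested. Its highest value was 0.450 in AOC replicate B, and its mean was 0.237 in AOC, 0.128 in IEC12, 0.0561 in IEC4 and 0.0203 in IEC2. At such levels the order of the groups was not resolved, since libraries of AOC, IEC12 and IEC4 overlapped.

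IGF1R, the signalling receptor, was highest in IEC4. On chromosome 1 (137383623 to 137691038), its FPKM was 0.738, 1.10 and 1.11 in IEC2, 1.51, 1.95 and 3.60 in IEC4, 0.706, 0.877 and 0.654 in IEC12, and 0.314, 0.263 and 0.201 in AOC. IEC4 did not overlap with any other group, AOC was below all IEC libraries, and IEC12 overlapped with IEC2. The mean in IEC4 was 2.36 ± 1.10 (SD, n = 3), and replicate C raised both its mean and its spread.

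On the log2(FPKM + 1) scale IGF1R differed by 0.72 between IEC4 and IEC2 (SE 0.231, limma adjusted p = 0.0352), by -0.90 between IEC12 and IEC4 (limma adjusted p = 0.0117) and by -0.18 between IEC12 and IEC2 (limma adjusted p = 0.556). None of these passed the fold limit. This scale compresses values near 1, and with a pseudocount of 0.1 in place of 1 the first was 1.11 and the second -1.46, both past the limits. The first was less stable, with an adjusted p of at least 0.05 in 9 of 16 alternative settings. Without IEC4 replicate A, the second was -1.08 and passed. Without IEC4 replicate C the first was 0.46 (limma adjusted p = 0.0921) and the second -0.64 (limma adjusted p = 0.027). IGF1R passed the filter on low values only with its IEC4 libraries, the group where it was high, so that it was tested only because IEC4 was high. In a fit of all genes without the filter, the adjusted p was 0.0641 for IEC4 against IEC2 and 0.0261 for IEC12 against IEC4 (limma). IEC4 replicate C, the highest for IGF1R, also had the highest epithelial marker sum (822, against 316 and 462 in replicates A and B), and the part of epithelial cells in the IGF1R value was not tested. The genes closest to IGF1R over the 12 libraries were GALNT3, an enzyme that starts O-linked glycosylation (r = 0.982), and PLET1, a surface protein of placental and other epithelia (r = 0.97). PLET1 had a mean FPKM of 52.2 in IEC4, 11.7 in IEC2, 2.39 in IEC12 and 0.0703 in AOC.

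IGF2R, on chromosome 1 (7369485 to 7472480), reached an FPKM of 1 in 1 of 12 libraries, IEC4 replicate C (1.36), and did not pass the filter. Its FPKM was 0.516, 0.718 and 0.847 in IEC2, 0.496, 0.710 and 1.36 in IEC4, 0.176, 0.2 and 0.157 in IEC12, and 0.277, 0.436 and 0.237 in AOC. The IEC12 libraries were the lowest and did not overlap with any other group. In a fit without the filter, IEC12 and IEC4 differed by -0.63 (limma adjusted p = 0.0273) and IEC12 and IEC2 by -0.52 (limma adjusted p = 0.0564).

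Of the 8 genes found, 5 passed the filter of an FPKM of 1 in at least 3 libraries, namely IGF1R, IGFBP2, IGFBP5, IGFBP6 and IGFBP7. Between IEC4 and IEC2, limma called 0 of 5, where 18.3% of all 10542 genes tested were called. IGF1R alone had an adjusted p under 0.05, as 37.3% of all genes had. Between IEC12 and IEC4, 1 of the 4 genes other than IGFBP2 was called, IGFBP5, which was lower. Of all genes 22.6% were called, and 16.4% were called lower. Without the fold limit, 3 of 4 passed (IGF1R, IGFBP5 and IGFBP6), beside 44.2% of all genes. Between IEC12 and IEC2, 2 of 4 were called, both lower (IGFBP5 and IGFBP6), against 21.4% of all genes in either direction and 10.3% lower. IGF1R and IGFBP5 passed the filter through the groups where they were high, so these counts describe the genes that passed and not the 8 found. Counts this small cannot be set apart from the background shares, and the genes were chosen with results known.

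**Figure D4:**
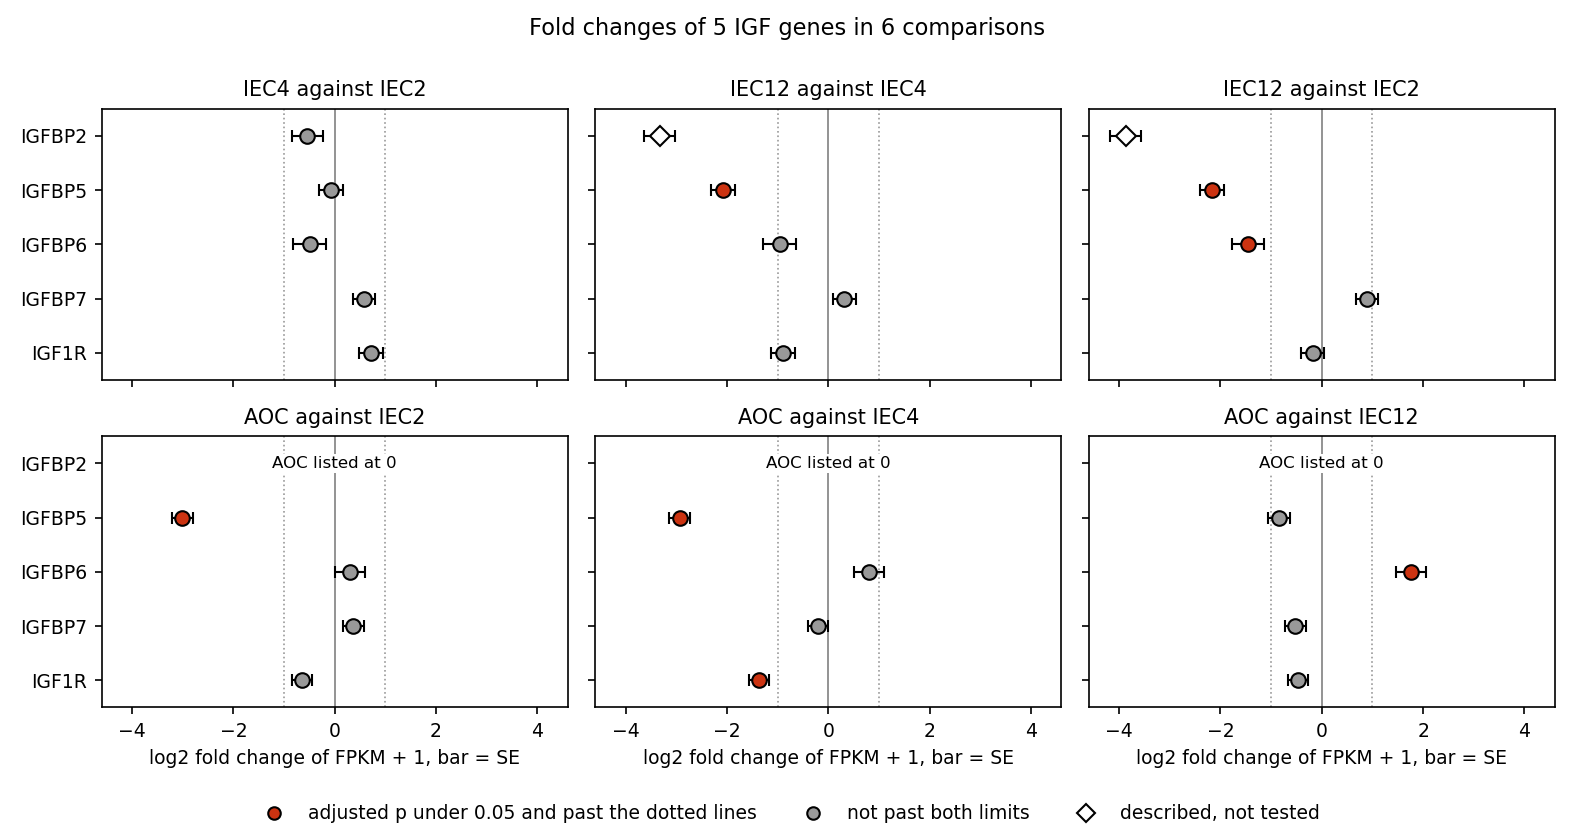
Log2 fold changes on the log2(FPKM + 1) scale (horizontal axis) of the tested genes in the comparisons, with bars for the standard error of the limma fit. IGFBP5 lay at -2.16 and IGFBP6 at -1.46 in IEC12 against IEC2, with IGFBP7 at 0.89, open diamonds for the IGFBP2 values that are a description, and red points past both limits for a call.

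The comparisons with AOC share the same 3 AOC libraries and are therefore not independent of each other. On the same log2 scale, IGFBP5 differed in AOC by -3.01 from IEC2 (SE 0.208, limma adjusted p = 1.62e-07) and by -2.93 from IEC4 (limma adjusted p = 2.47e-07). IGFBP5 passed the filter through IEC2 and IEC4, where it was high, and without the filter these adjusted p values were 1.6e-06 and 2.31e-06 (limma). Against IEC12 the difference was -0.85 (limma adjusted p = 0.00425), under the fold limit, and without IEC12 replicate A it was -1.04 and passed. IGFBP6 was higher in AOC than in IEC12 by 1.77 (SE 0.294, limma adjusted p = 0.000278) and held this call in 19 of 19 other fits at the same limits. It differed by 0.80 from IEC4 (limma adjusted p = 0.0286, 1.02 and past the fold limit without IEC4 replicate B) and by 0.31 from IEC2 (limma adjusted p = 0.378). With libraries scaled to equal totals the last was -0.01, so that no direction can be given for it.

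IGF1R differed in AOC by -1.37 from IEC4 (SE 0.2, limma adjusted p = 8.37e-05), after a filter passed only with IEC4. Without the filter the adjusted p was 0.000278 (limma). Against IEC2 it differed by -0.65 (limma adjusted p = 0.0134) and against IEC12 by -0.47 (limma adjusted p = 0.0619), and with a pseudocount of 0.1 these were -1.58 and -1.24 and were called. For IGFBP7 the differences were 0.37 from IEC2 (limma adjusted p = 0.133), -0.21 from IEC4 (limma adjusted p = 0.379) and -0.52 from IEC12 (limma adjusted p = 0.0434). The second turned to 0.21 with median-of-ratios scaling. Of the 4 genes other than IGFBP2, called in AOC were thus 1 against IEC2 (39% of all 11053 genes tested, 22.2% lower), 2 against IEC4 (42%, 28.9% lower) and 1 against IEC12 (32.6%, 13.9% higher). As between the stages, IGF1R and IGFBP5 passed the filter through the groups where they were high, which limits all counts with AOC. Without the fold limit, 2 of 4 passed against IEC2 (IGF1R and IGFBP5), beside 63.8% of all genes, and 3 of 4 against IEC12 (IGFBP5, IGFBP6 and IGFBP7), beside 58.5%. When p and adjusted p had to be under 0.001 and the log2 fold change beyond 3 in size, 1 of 4 remained against IEC2 (IGFBP5, where 5.47% of all genes passed). None of the genes tested passed against IEC4 (5.17%) or IEC12 (4.41%), or in IEC4 against IEC2 (1.18%), IEC12 against IEC4 (0.939%) and IEC12 against IEC2 (1.22%).

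The median fold change of all genes was itself not at 0, and its place depended on the scaling. It was 0.20 for IEC4 against IEC2, -0.15 for IEC12 against IEC4, 0.03 for IEC12 against IEC2, and -0.20, -0.45 and -0.21 for AOC against IEC2, IEC4 and IEC12. With median-of-ratios scaling these medians lay between -0.03 and 0.04. Relative to the median of all genes, IGFBP5 in IEC12 and IGFBP6 in AOC against IEC12 kept their direction, and their calls held under both other scalings. Among all calls, 73.8% were higher in IEC4 than in IEC2, against 56.3% with median-of-ratios scaling. The share of higher calls was 27.6% for IEC12 against IEC4 (43.6% and 17.4% with median-of-ratios scaling and equal totals) and 51.7% for IEC12 against IEC2 (50.1% and 33.4%). For AOC it was 43.1% against IEC2 (53.1% and 31.1%), 31.2% against IEC4 (52.1% and 23.3%) and 42.8% against IEC12 (55% and 40.6%).

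Over the IEC stages, the mean of IGFBP6 was lower and that of IGFBP7 higher at each later stage. No step between neighbouring stages was called for either gene. Over the 12 libraries, those of AOC included, their Pearson's r was -0.62. The genes closest to IGFBP6 were 1 identifier without a symbol and VIM, the intermediate filament of mesenchymal and endothelial cells (r = 0.928). VIM had a mean FPKM of 780 in AOC and 91.2 in IEC12, with 412 and 279 in IEC2 and IEC4. The closest to IGFBP7 were C15orf40 (r = 0.943) and DHX9, an RNA helicase (r = 0.928). DHX9 had a mean FPKM of 10.8 in IEC12, 7.73 in IEC4, 6.54 in AOC and 3.79 in IEC2.

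Around the members, 8 lists of other IGF pathway genes were read, with 81 of 91 genes found and 55 tested. Called were 4 higher and 2 lower between IEC4 and IEC2, 1 higher and 15 lower between IEC12 and IEC4 and 10 between IEC12 and IEC2, which were all lower. These are 10.9%, 29.1% and 18.2% of the 55 genes, beside 18.3%, 22.6% and 21.4% of all genes. The median fold change of the 55 genes was 0.17, -0.18 and -0.04, close to that of all genes. In AOC, 4 were called higher and 14 lower against IEC2, 2 and 18 against IEC4, and 6 and 8 against IEC12. These are 32.7%, 36.4% and 25.5% of the 55 genes, below the 39%, 42% and 32.6% of all genes. Among the genes called, IGFBPL1 and IRS1 passed the filter only with IEC2, and LIN28A and TSC2 only with IEC4. STC1 and AKT2 passed only through IEC2 and IEC4, and so did IGF2BP2 in the comparisons of stages, which leave AOC out. The counts therefore describe the genes that passed and not the 81 found.

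Of the 5 tested genes among IGFBP proteases and their inhibitors, 4 were called lower in IEC12 than in IEC4, and the 5th, ADAMTS1, was not called. Of all genes, 16.4% were called lower there. STC1 and STC2, the stanniocalcins, inhibit the protease PAPPA. STC2 FPKM was 11.8, 21.1 and 24.8 in IEC2, 12.0, 21.6 and 18.4 in IEC4, 0.951, 1.35 and 1.57 in IEC12, and 1.75, 1.74 and 1.49 in AOC. It fell by 2.97 from IEC4 to IEC12 on the log2(FPKM + 1) scale (SE 0.292, limma adjusted p = 9.04e-05). STC1 fell by 1.89 from IEC2 to IEC12 (limma adjusted p = 6.15e-05) and was listed at 0 in 3 of 3 AOC libraries. It passed the filter only through IEC2 and IEC4, where it was high, and without the filter that adjusted p was 0.000379 (limma). PAPPA itself did not exceed 0.963 in an IEC library and lay between 0.654 and 2.04 in AOC.

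HTRA1, a secreted serine protease that cuts IGFBP5, was high in IEC4 and AOC. Its FPKM was 3.07, 3.19 and 3.67 in IEC2, 12.5, 14.1 and 19 in IEC4, 3.64, 4.81 and 2.77 in IEC12, and 24.1, 31.7 and 26.5 in AOC. The IEC2 and IEC12 libraries overlapped and lay below those of IEC4 and AOC. HTRA1 rose from IEC2 to IEC4 by 1.90 (SE 0.214, limma adjusted p = 0.00015) and was 2.60 higher in AOC than in IEC12 (limma adjusted p = 4.06e-07). CTSD, the lysosomal protease cathepsin D, had an FPKM of 15.4, 21.9 and 29.1 in IEC4 and of 0.482, 3.25 and 5.42 in IEC12, and fell by 2.71 between them (SE 0.5, limma adjusted p = 0.00229).

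**Figure D5:**
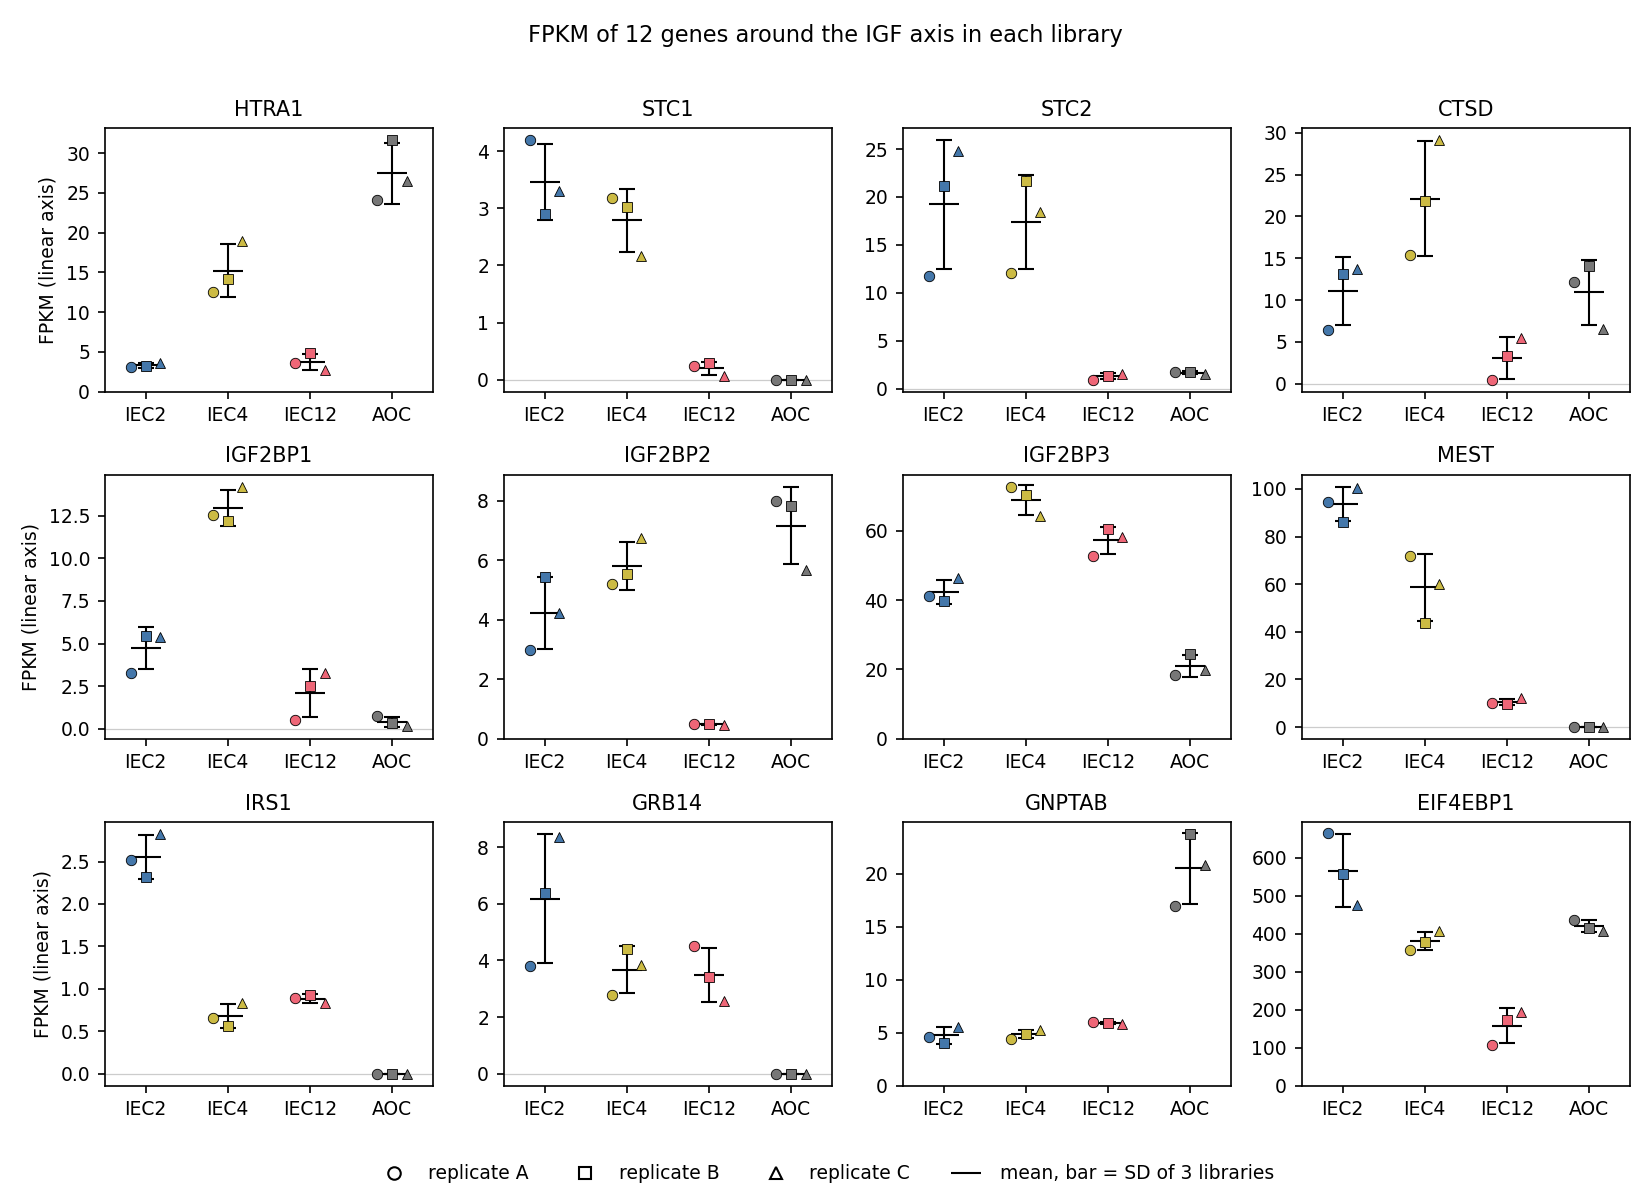
FPKM (vertical axes, linear) of 12 genes around the IGF axis by group, with points for libraries and bars for the mean and SD of 3. STC2 and MEST were high in IEC2 and IEC4 and low in IEC12, and HTRA1 was high in IEC4 and AOC.

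Genes linked to the IGF2 mRNA and to imprinting followed no single course over all groups. Between IEC4 and IEC2, 2 of the 6 tested were called higher and 0 lower. Between IEC12 and IEC4, 4 were called lower (IGF2BP1, IGF2BP2, LIN28A and MEST) and 2 were not called, where 16.4% of all genes were called lower. LIN28A passed the filter only with its IEC4 libraries. In the comparisons of stages, IGF2BP2 passed it only through IEC2 and IEC4, where it was higher than in IEC12. The count of 4 therefore describes the genes that passed. Without the filter, the adjusted p of IGF2BP2 for IEC12 against IEC4 was 0.000439 (limma). MEST, an imprinted gene expressed from the paternal allele, was at 86.1 to 100.3 in IEC2, 43.9 to 71.8 in IEC4, 9.51 to 12.0 in IEC12 and 0.160 to 0.208 in AOC. MEST fell by 2.35 from IEC4 to IEC12 (SE 0.182, limma adjusted p = 2.63e-05). IGF2BP1, an RNA-binding protein that binds the IGF2 mRNA, rose from IEC2 to IEC4 by 1.31 (SE 0.352, limma adjusted p = 0.0162), from 3.30 to 5.47 in IEC2 to 12.2 to 14.2 in IEC4, and lay at 0.512 to 3.26 in IEC12. Its relative IGF2BP2 was at 0.474 to 0.507 in IEC12 and at 5.66 to 7.996 in AOC, a difference of 2.44 (SE 0.195, limma adjusted p = 7.08e-07). LIN28A, an RNA-binding protein of pluripotent cells that also binds IGF2 mRNA, was listed at 0 in 3 of 3 IEC2 libraries, lay at 3.01 to 5.86 in IEC4, at 0 to 0.647 in IEC12 and at 0 in AOC. IGFBPL1, a protein related to the binding proteins, lay at 2.19 to 4.97 in IEC2 and at 0.273 to 0.586 in IEC4, a difference of -1.57. It passed the filter only with its IEC2 libraries, and without the filter the adjusted p was 0.00282 (limma).

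Among the 9 tested substrates and adaptors of the receptor, 1 was called between IEC4 and IEC2. This was IRS1, the first docking protein of the receptor. Its FPKM was 2.52, 2.31 and 2.82 in IEC2 and 0.650, 0.561 and 0.835 in IEC4, a difference of -1.08. It passed the filter only with its IEC2 libraries, where it was high, and in a fit of all genes without the filter the adjusted p was 0.00137 (limma). In IEC12 it lay at 0.831 to 0.930, and it was listed at 0 in AOC. IRS2 was listed at 0 in 12 of 12 libraries. GRB14, an adaptor that inhibits insulin receptor signalling, lay at 2.58 to 8.35 in the IEC libraries and was listed at 0 in 3 of 3 AOC libraries.

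In the PI3K, AKT and FOXO list, 1 of 12 tested genes was called higher and 2 lower in IEC12 against IEC4, where 22.6% of all genes were called. The one that rose was PIK3R3, a regulatory subunit of PI3K, which had an FPKM of 1.40, 0.501 and 1.16 in IEC4 and of 3.92, 4.48 and 4.32 in IEC12, and differed by 1.40 (SE 0.276, limma adjusted p = 0.00326). Of 10 tested mTOR genes, 3 were called lower in that comparison, namely TSC2, AKT1S1 and the translation repressor EIF4EBP1. TSC2 passed the filter only with its IEC4 libraries. In the RAS and MAPK list, 1 of 9 genes was called lower, ARAF. Called were thus 25% of the first list and 30% of the mTOR genes. Between AOC and IEC2, NRAS, a RAS GTPase, rose by 1.10 (SE 0.114, limma adjusted p = 4.59e-06), from 67.4 to 76.4 in IEC2 to 149 to 163 in AOC.

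IGF2R carries lysosomal enzymes by their mannose 6-phosphate tag, a task shared with the smaller receptor M6PR. M6PR, with an FPKM of 18.2 to 27.8 in the IEC libraries and 29.97 to 35.6 in AOC, differed by 0.08 between IEC12 and IEC2 (limma adjusted p = 0.719). GNPTAB, which encodes subunits of the enzyme that makes the mannose 6-phosphate tag, had an FPKM of 17.0, 23.8 and 20.8 in AOC and of 4.02 to 6.001 in the 9 IEC libraries. AOC exceeded IEC2 in GNPTAB by 1.90 (SE 0.155, limma adjusted p = 6.1e-07).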

How the data were processed

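Total RNA libraries of 12 samples (IEC2, IEC4, IEC12 and AOC, 3 each) were made from cDNA amplified by Smart-Seq2 and sequenced on an Illumina instrument. The authors analysed the reads in Galaxy and deposited 1 FPKM value per Ensembl gene and library, and the submitters' processing notes list TopHat2 2.0.12, Bowtie2 2.2.3, Cufflinks 2.2.1 and susScr11. The annotation version is not given in the sources used here. Groups and replicate letters came from the sample titles.

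Symbols were matched for 13998 identifiers, and positions are RefSeq's. Tests used log2(FPKM + 1), which understates changes of low genes. Genes that reached an FPKM of 1 in 3 or more libraries were tested with limma 3.58.1 in R 4.3.3 (trended variance, Benjamini-Hochberg adjustment over all genes tested). Stages were compared in the 9 IEC libraries (10542 genes) and AOC in all 12 (11053 genes). The limma fit was tested on simulated data. IGFBP2 was tested only between IEC4 and IEC2. The ratio of IGFBP7 to IGFBP6, which was not planned, was tested by exact permutation.

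The members and lists were chosen with earlier results of these data known. Named were all members; of the pathway lists, up to 3 called genes per direction and comparison whose groups did not overlap; the genes most correlated with IGFBP2 (5) and with each other tested member (2); and defining markers. PAPPA, IRS2, M6PR and genes named only as called were added after their values were seen. Same-letter libraries of different groups deviated from their group means with correlations of -0.514 to 0.246, so letters were not treated as pairs. Alternatives were a pseudocount of 0.1, no filter, only the groups compared, a replicate block, median-of-ratios scaling, equal totals, no variance trend, other limits and each library left out. Read counts behind FPKM values are unknown, so no counting intervals are given. No sequence is shown.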

Additional observations from a re-analysis of the deposited data

How the results depend on the processing

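Of 432 tested fold changes of the members under the alternative fits, without the IGFBP2 values that chose the set, 413 kept their direction and side of the limits. The number of all genes called stayed within 1.5 times under every alternative fit. Without a fold limit, 3932, 4660, 4592, 7050, 7639 and 6469 genes passed in IEC4 against IEC2, IEC12 against IEC4, IEC12 against IEC2 and AOC against IEC2, IEC4 and IEC12. At p and adjusted p under 0.001 and a fold limit of 3, 124, 99, 129, 605, 571 and 487 passed, against 1928, 2385, 2253, 4311, 4638 and 3600 at the limits used. With single libraries left out, the counts were 1634 to 1992, 1905 to 2822, 2058 to 2476, 3986 to 4490, 4258 to 4657 and 3249 to 3641, and of members 0 to 0, 1 to 2, 2 to 3, 1 to 1, 2 to 3 and 1 to 2.

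Members called with a pseudocount of 0.1 were 1 in IEC4 against IEC2, 3 in IEC12 against IEC4, 2 in AOC against IEC2 and 3 in AOC against IEC12. Of all genes, 2419, 2909, 5410 and 4740 were called in these comparisons at that pseudocount, more than in the fit reported. The member numbers equal those without a fold limit, but in AOC against IEC12 IGF1R was called in place of IGFBP7. With equal totals, 2 members were called in IEC12 against IEC4, where 2547 of all genes were called. At the stricter limits, members called were 0 in IEC12 against IEC4, 0 in IEC12 against IEC2, 0 in AOC against IEC4 and 0 in AOC against IEC12. A different direction was seen for IGFBP6 in AOC against IEC2 (-0.01, equal totals), IGFBP7 in AOC against IEC4 (0.21, median-of-ratios scaling), and IGFBP5 in IEC4 against IEC2 (0.04 without IEC2 replicate C and 0.03 without IEC4 replicate B, in a range of -0.16 to 0.04 over single libraries left out). None of these 3 was past the threshold in the fit reported. Past the limits were also IGFBP7 in IEC12 against IEC2 (1.12) and IGFBP5 in AOC against IEC12 (-2.85) with a pseudocount of 0.1, and IGFBP6 in AOC against IEC4 (1.29) with median-of-ratios scaling. The cause was not tested.

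With the replicate letter as a replicate block, 1965, 2422, 2272, 4314, 4635 and 3596 genes and 0, 1, 2, 1, 2 and 1 members were called. Of 6 libraries in each comparison, 1, 0, 4, 1, 5 and 0 correlated best with the library of their own letter. The comparisons were thus mixed, and whether a letter marks a shared batch was not tested. Depth in reads is unknown, and IGF1, IGFBP4 and IGF2R were too low to be tested.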
